A study of Mus musculus with 4 samples.

Results

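The MHC class I presentation genes studied here are 10 of the 32285 genes in the deposited tables. They are the heavy chains H2-K1 and H2-D1, the light chain B2m, the peptide transporter subunits Tap1 and Tap2, tapasin (Tapbp), the immunoproteasome subunits Psmb8, Psmb9 and Psmb10, and the transactivator Nlrc5. They were chosen as a list of known parts of the pathway, with earlier results of these data known, and all 10 were measured. Immune cells of B6 mice bearing the BeCon tumour, a model in a series on ovarian cancer, came from ascites, spleen and peripheral blood after treatment with YKL-05-099, an inhibitor of salt-inducible kinases, or with its vehicle. The hashtag notes name the second arm control, and it was taken as the vehicle arm. Vehicle mice carried the tumour as well, so no group was tumour-free. Live cells were sorted for CD45 and for MHC class I at the surface, so cells with little surface class I were not sampled. The dose, the length of treatment and the age and sex of the mice are not given in the sources used here. Cells carried 1 hashtag antibody per mouse and tissue. Ascites was sampled from vehicle mice 1 to 4 and treated mice 1 to 4, while spleen and blood were sampled from vehicle mice 1 to 3 and treated mice 2 to 4, and equal mouse numbers were taken as the same animal.

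MHC class I molecules carry peptides from inside the cell to its surface, where CD8 T cells read them. Peptides come from the proteasome, in which PSMB8, PSMB9 and PSMB10 replace the constitutive catalytic subunits when the immunoproteasome forms. The TAP1 and TAP2 pair pumps peptides into the endoplasmic reticulum, tapasin holds the transporter beside an empty heavy chain, and the heavy chain reaches the surface bound to B2M. NLRC5 is the class I transactivator and acts with factors that bind the X and Y boxes of class I promoters. Interferons raise most of these genes, partly through IRF factors. Macrophages and dendritic cells use the pathway to present their own and ingested antigens, and type 1 conventional dendritic cells (cDC1) are known for presenting ingested antigen on class I.

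To show the elements that NLRC5 partners and interferon factors are known to read, the 250 bases before the start sites were taken from RefSeq on GRCm38.p6, where 8 of the 10 genes were listed. Those of 4 genes are printed 5′ to 3′ on the gene's strand, and capitals mark every match to a searched motif on either strand. The motifs were TGACG (reverse CGTCA), the core of the X2 box and of CREB sites; ATTGG (reverse CCAAT), the core of the Y box; a kappaB pattern of GGG and TTCCC with any 2 bases between (reverse GGGAA and CCC); a core of interferon-stimulated response elements, TTTC repeated with any 2 bases between (reverse GAAA repeated); and a STAT pattern of TTC and GAA with any 3 bases between. No matches overlapped. The windows were chr17:34000348-34000597 on the minus strand for H2-K1, chr17:35262844-35263093 on the plus strand for H2-D1, chr2:122147437-122147686 on the plus strand for B2m and chr17:34187306-34187555 on the plus strand for Tap1.
H2-K1: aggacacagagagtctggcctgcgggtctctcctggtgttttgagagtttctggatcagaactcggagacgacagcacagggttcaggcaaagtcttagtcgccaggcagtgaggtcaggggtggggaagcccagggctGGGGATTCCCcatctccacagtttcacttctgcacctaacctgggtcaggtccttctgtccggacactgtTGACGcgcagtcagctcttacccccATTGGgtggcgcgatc
H2-D1: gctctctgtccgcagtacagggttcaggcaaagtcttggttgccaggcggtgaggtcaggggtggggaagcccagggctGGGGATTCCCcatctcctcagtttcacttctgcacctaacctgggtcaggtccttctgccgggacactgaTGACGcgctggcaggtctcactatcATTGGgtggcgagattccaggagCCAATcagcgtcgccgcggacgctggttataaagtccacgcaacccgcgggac
B2m: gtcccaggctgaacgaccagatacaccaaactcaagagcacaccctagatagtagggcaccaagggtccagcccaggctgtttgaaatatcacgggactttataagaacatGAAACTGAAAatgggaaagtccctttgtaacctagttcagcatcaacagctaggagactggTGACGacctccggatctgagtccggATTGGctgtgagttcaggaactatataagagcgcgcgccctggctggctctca
Tap1: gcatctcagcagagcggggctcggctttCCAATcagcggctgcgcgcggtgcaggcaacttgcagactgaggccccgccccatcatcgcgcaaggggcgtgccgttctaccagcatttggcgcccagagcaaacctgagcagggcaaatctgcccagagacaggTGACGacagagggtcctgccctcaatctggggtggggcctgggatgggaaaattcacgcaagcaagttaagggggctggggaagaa

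H2-K1 and H2-D1 shared 1 order of matches, a kappaB match followed by TGACG and then ATTGG. In H2-K1 these began 111, 41 and 16 bases before the start site, and in H2-D1 171, 101 and 76 bases before it. The B2m window had no kappaB match but held an interferon response core at -139 to -130, TGACG at -78 to -74 and ATTGG at -53 to -49. The Tap1 and Psmb9 start sites lie 226 bases apart on opposite strands, and 1 TGACG match, at -86 to -82 of Tap1 and -144 to -140 of Psmb9, fell in both windows. So did 1 ATTGG match, at -222 to -218 of Tap1 and -8 to -4 of Psmb9. Each shared match is counted for both genes below. TGACG was found in 5 of the 8 listed genes and in 17.8% of all 32851 promoters of the same length, and ATTGG in 6 of the 8 and in 33.9% of all. The kappaB pattern was in H2-K1 and H2-D1 and in 1.53% of all promoters. The response core as searched was found in B2m and in 2.98% of all, and the STAT pattern in Psmb8 and in 7.02% of all. H2-K1 and H2-D1 both hold tttcacttct after the kappaB match, which departs from that core only at its end and was not counted. A match is a description of letters and not a binding site. A window without a match can hold variants that these patterns miss. Tap2 and Nlrc5 are named only.

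The ascites library held 134034611 UMIs (unique transcripts counted) in 13688 barcodes, and the spleen and blood library 92064806 UMIs in 14792 barcodes, with 52 barcodes in common. After removal of barcodes with mixed or no hashtags and of poor cells, 6274 ascites cells (median 8447.5 UMIs) and 6673 spleen and blood cells (median 5961 UMIs) were kept. Ascites samples had 666 to 1094 cells per mouse, spleen samples 580 to 804 and blood samples 370 to 498. Cells were put in classes by counting fixed marker genes with at least 1 UMI, so a class is what passed its markers. UMIs were summed per mouse and class, and CPM below is a gene's UMIs scaled to the usual common total of such a sum. Each class with at least 20 cells in at least 2 mice per arm was tested with edgeR's quasi-likelihood test, and p-values were adjusted by the Benjamini-Hochberg method over all genes tested in that class and tissue, with a threshold of 0.05. Nothing beyond the mouse number says how the animals were raised or processed. All 10 genes had 3′ ends whose 90-base stretches were found in no other gene, so the counts of H2-K1 and H2-D1 were not shared through them.

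**Figure D1:**
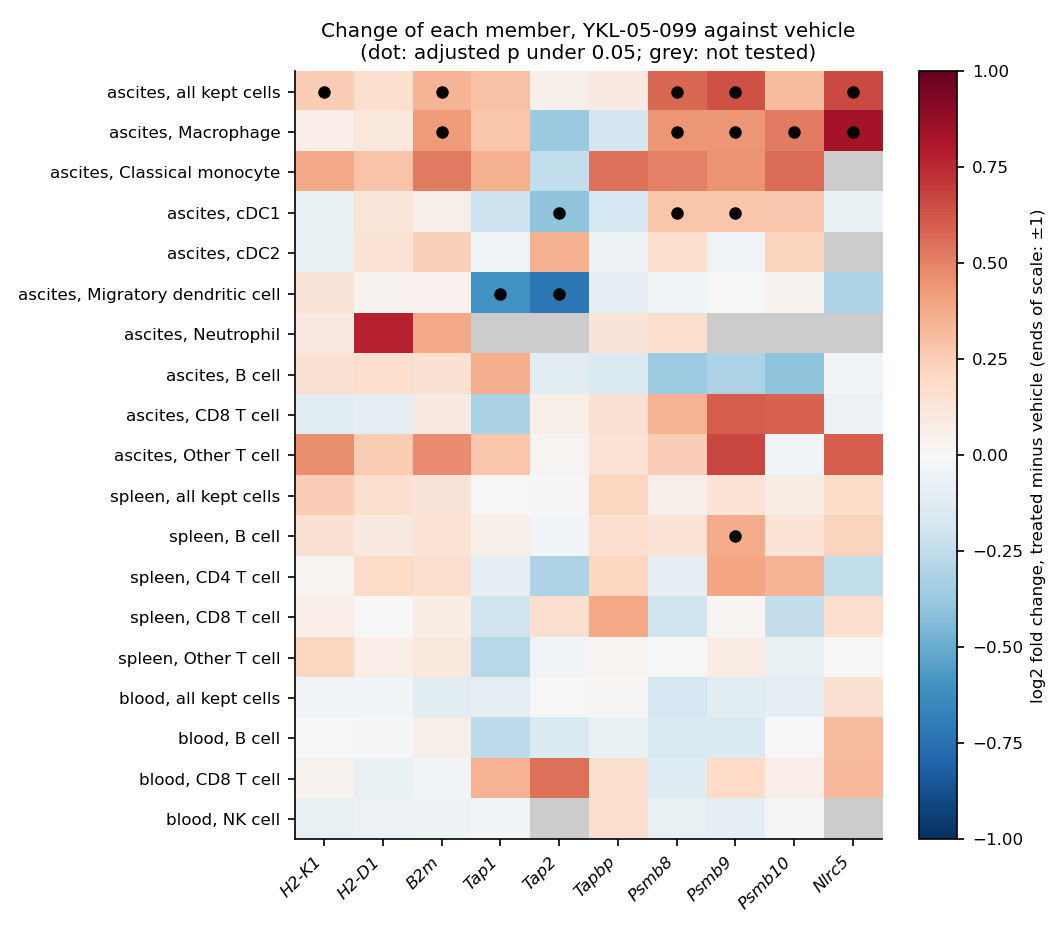
Log2 fold change of each gene (columns) in each class and tissue (lines of the heat map), YKL-05-099 minus vehicle. Dots mark an edgeR adjusted p under 0.05, grey cells were not tested, and the dots lie in the whole ascites sample, ascites macrophages, cDC1, migratory dendritic cells and spleen B cells.

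Over 16 classes in the 3 tissues, 151 pairs of gene and class were tested. Of these, 8 passed the threshold as higher in treated mice and 3 as lower, while over all 80613 tested pairs of any gene and class 3.08% passed as higher and 3.32% as lower. A positive log2 fold change was found in 94 of the 151, against 50% of all pairs, and the mice of the arms did not overlap in 39 of the 151, against 16.7% of all pairs. By class, the arms did not overlap for 11.1% (spleen CD4 T cells) to 21.8% (ascites macrophages) of all genes tested. These shares are a description, since genes are not independent replicates and the members were chosen with earlier results of these data known. Ascites held 10 of the 11 calls (7 higher and 3 lower among 83 pairs in 9 classes), spleen 1 among 40 pairs in 4 classes and blood 0 among 28 pairs in 3 classes. Genes of any kind were also called most often in ascites, where 4.83% of all gene and class pairs passed as higher and 5.28% as lower. These shares were 1.13% and 1.14% in spleen and 0.411% and 0.279% in blood. In blood, 2 pairs had an unadjusted edgeR p under 0.05 and DESeq2 called 0. An unadjusted p under 0.05 was found for 21.7% of all gene and class pairs in ascites, 11.1% in spleen and 8.06% in blood. B2m was the gene with a positive change in the most ascites classes, 9 of 9, without overlap in 6 of them. Of the 1217 genes tested in all 9 classes, 2.14% were positive in all 9 and 2.47% were without overlap in 6 or more. The heat map of changes shows that the direction was mixed for Tap1 (positive in 4 of 8 ascites classes) and Tap2 (3 of 8).

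In ascites macrophages, B2m, Nlrc5 and the immunoproteasome subunits Psmb8, Psmb9 and Psmb10 rose with YKL-05-099, while the heavy chains H2-K1 and H2-D1 did not pass the test. These 5 calls of 10 stand beside 18.0% of the 9693 genes tested in the class (8.72% higher), and DESeq2 also called 5. The median log2 change over the 10 genes was 0.35, against 0.005 over all genes tested. The vehicle sums came from 189, 278, 327 and 236 cells of mice 1 to 4, and the treated sums from 118, 170, 113 and 56 cells.

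B2m, the light chain of every class I molecule, was at 2637, 2604, 2723 and 2444 CPM in vehicle mice 1 to 4 and at 3859, 3445, 3288 and 3231 CPM in treated mice 1 to 4. Every treated mouse was above every vehicle mouse. The fitted change was 0.43 ± 0.071 on the log2 scale (SE, 4 against 4 mice), a 1.34-fold rise (edgeR adjusted p = 0.000939). H2-K1 stood at 1076, 987.5, 1011 and 1171 CPM in vehicle and 1297, 1068, 1028 and 1011 CPM in treated mice. The arms overlapped widely, with a log2 change of 0.07 ± 0.094 (edgeR adjusted p = 0.669). H2-D1, the other heavy chain, measured 1484, 1281, 1484 and 1745 CPM in vehicle and 1726, 1630, 1579 and 1439 CPM in treated mice. Its arms overlapped too (log2 0.10 ± 0.093, edgeR adjusted p = 0.494).

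The 3 immunoproteasome subunits rose by similar amounts. Psmb8 measured 188.8, 202.2, 213.0 and 188.5 CPM in vehicle and 301.7, 289.3, 237.3 and 235.3 CPM in treated mice. The arms did not overlap, and the log2 change was 0.44 ± 0.098 (edgeR adjusted p = 0.00616). Psmb10 measured 111.8, 117.0, 137.8 and 125.6 CPM in vehicle and 176.5, 195.0, 153.1 and 174.3 CPM in treated mice. Here as well the arms were apart, by 0.52 ± 0.095 on the log2 scale (edgeR adjusted p = 0.00188). Psmb9 measured 66.68, 77.5, 81.57 and 67.33 CPM in vehicle and 108.1, 111.6, 91.57 and 78.45 CPM in treated mice, so that treated mouse 4 lay within the vehicle range. The log2 change of Psmb9 was 0.44 ± 0.112 (edgeR adjusted p = 0.0138). Without vehicle mouse 1 it was 0.41 with an edgeR adjusted p of 0.0502. Relative to the constitutive subunits Psmb5, Psmb6 and Psmb7, the balance overlapped between arms: Psmb8, Psmb9 and Psmb10 made up 53.6% ± 0.934 (SD, n = 4) of the UMIs of all 6 genes in vehicle mice and 54.4% ± 2.85 (SD, n = 4) in treated mice.

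Nlrc5, the class I transactivator, was at 11.78, 15.03, 15.83 and 14.57 CPM in vehicle and 27.75, 26.77, 22.15 and 24.9 CPM in treated mice. These are 41 to 92 UMIs per vehicle mouse and 20 to 77 per treated mouse. No mouse of one arm reached the other, and the log2 change of 0.83 ± 0.150 was the largest of the 10 genes in the class (edgeR adjusted p = 0.00166).

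The peptide transporter subunits did not pass the test in macrophages. Tap1 stood at 48.0, 47.05, 51.11 and 43.04 CPM in vehicle and 60.23, 59.8, 50.21 and 57.28 CPM in treated mice. Treated mouse 3 lay within the vehicle range, and the change of 0.28 ± 0.108 on the log2 scale missed the threshold (edgeR adjusted p = 0.0931). Tap2, its partner, was at 39.38, 31.83, 38.03 and 41.06 CPM in vehicle and 29.52, 30.94, 25.6 and 28.64 CPM in treated mice. All treated mice were below all vehicle mice, yet the log2 change of -0.38 ± 0.134 had an edgeR adjusted p of 0.0657. It was -0.46 without vehicle mouse 2, with an edgeR adjusted p of 0.0419. Tapbp, which bridges the transporter and the heavy chain, gave -0.18 ± 0.107 on the log2 scale with overlapping arms (edgeR adjusted p = 0.270).

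**Figure D2:**
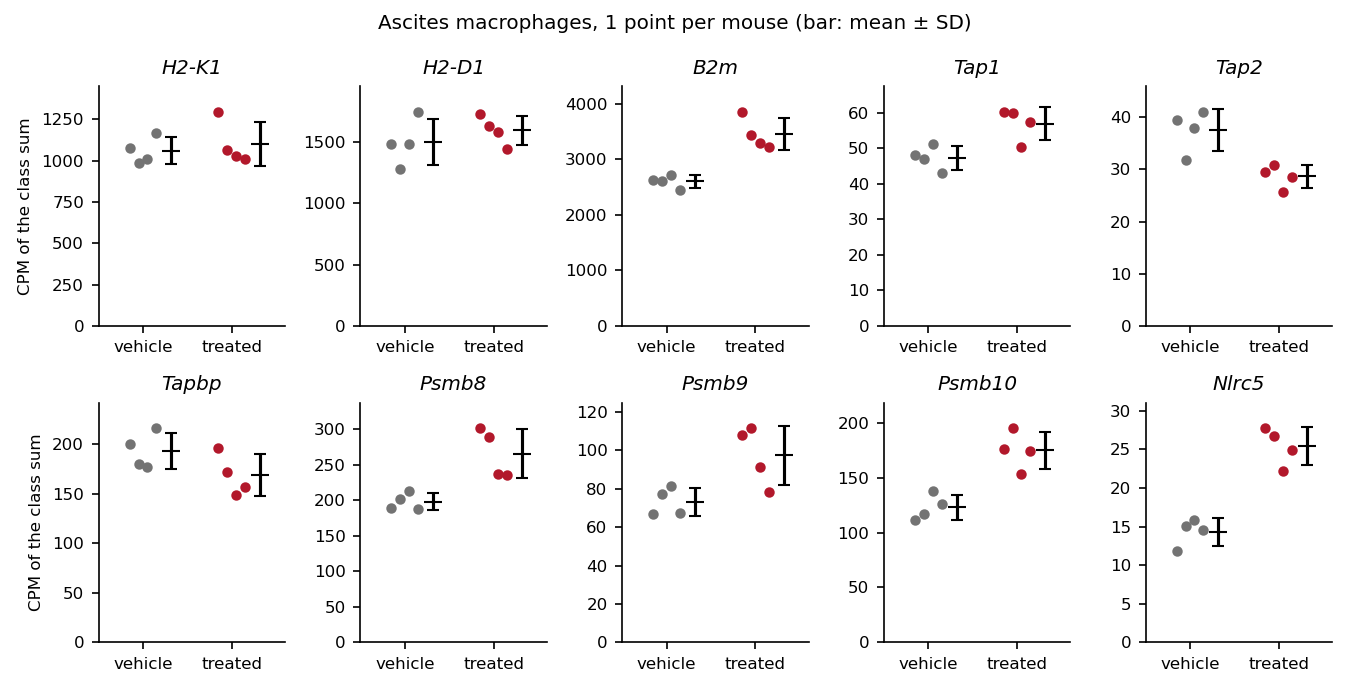
CPM of the class sum (vertical axes, each from 0) for the 10 genes in ascites macrophages, 1 point per mouse, with the mean and SD as bars. B2m, Tap2, Psmb8, Psmb10 and Nlrc5 have arms that do not overlap, Tap2 with the treated mice lower. Of all genes tested in the class, 21.8% have arms that do not overlap.

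The cells behind the class differed between the arms. Macrophages made up 30% of the 3430 kept ascites cells in vehicle mice and 16.1% of the 2844 in treated mice. These shares depend on the gate, which asked for at least 7 of the 8 macrophage markers. In vehicle mice 1058 cells reached it, 309 of them with exactly 7, and 200 more had 1 marker fewer. In treated mice these were 480, 282 and 286 cells, and the part of the gate in the result was not tested. Within the class, the summed level of the 8 macrophage markers was 27190 to 33060 CPM in vehicle mice and 14580 to 19230 CPM in treated mice, with 0 of the 8 higher in treated mice. Their part in the result was not tested. Classical monocyte markers summed to 856 to 1688 CPM in vehicle and 865 to 1253 CPM in treated mice, with 4 of 8 higher in treated mice. Erythroid markers were at 216 to 912 CPM in vehicle and 15.3 to 10800 CPM in treated mice, with all 5 higher on average in treated mice, and their part in the result was not tested either. B cell markers were at 18.2 to 32.5 CPM and T cell markers at 4.89 to 13 CPM in all 8 mice, and the NK cell marker Ncr1 was at 0. Other summed markers were apart between the arms. Those of migratory dendritic cells were at 15.5 to 19.0 CPM in vehicle and 21.7 to 32.4 CPM in treated mice (5 of 7 higher), and those of plasmacytoid dendritic cells at 172 to 212 CPM and 271 to 349 CPM (4 of 6 higher). The plasmacytoid markers include Bst2, which is also on the list of interferon-induced genes read below. Neutrophil markers were at 99.8 to 219 CPM in vehicle and 34.9 to 79.1 CPM in treated mice (0 of 6 higher), and non-classical monocyte markers at 142 to 192 CPM and 61.5 to 131 CPM (2 of 7 higher). The part of these in the result was not tested.

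Unsupervised Leiden clusters split the class largely by arm. Cluster 4, led by Lyve1 and Fcna, held 37.3% of vehicle and 1.09% of treated macrophages, and cluster 5, led by Ctsk and Gpnmb, 2.04% and 56.2%. Cluster 6, led by the monocyte genes Ly6c2 and Plac8, held 0.388% of vehicle and 27.1% of treated macrophages. Cluster 7 (Retnla, Ear2) held 23.1% and 5.03%, cluster 15 (Fcrls, Hpgd) 12.8% and 1.53%, cluster 18 (Prg4, Alox15) 9.90% and 0, and cluster 10 (Chil3, Vcan) 7.67% and 1.09%. Cluster 17, with the cell cycle gene Top2a among its leading genes, held similar shares of both arms, 5.24% and 3.72%. Because clusters 6, 7 and 10 led with markers of other classes, the class was also built from whole clusters in which at least 50% of cells passed the macrophage markers, which leaves out clusters 6 and 10 and keeps cluster 7. The same 5 genes rose, with log2 changes of 0.40 for B2m, 0.45 for Psmb8, 0.77 for Psmb9, 0.38 for Psmb10 and 0.79 for Nlrc5. Tap1 was then a sixth call (0.45, edgeR adjusted p = 0.00889).

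B2m differed between the clusters of the arms, with overlap. It was at 3610 to 4293 CPM over the 4 treated mice in cluster 5 and at 2730 to 3730 CPM in cluster 6, while the 4 vehicle mice had 2686 to 3004 CPM in cluster 4 and 2441 to 2714 CPM in cluster 7. Cluster 6 thus overlapped with cluster 4. Nlrc5 stood at 27.4 CPM in cluster 5 and 26.4 CPM in cluster 6 with mice pooled, against 13.6 CPM in cluster 4, 17.9 CPM in cluster 7, 16.7 CPM in cluster 15 and 7.04 CPM in cluster 18. Psmb8 did not divide so simply, since cluster 7, held mostly by vehicle cells, was at 257 CPM and cluster 5 at 243 CPM. Tap1 was likewise as high in cluster 7 (72.3 CPM) as in cluster 6 (71.6 CPM) and lower in cluster 5 (51.9 CPM). Cluster 18, with the peritoneal resident genes Prg4 and Alox15, had the lowest pooled level of Psmb8 (102 CPM), Psmb10 (94.1 CPM), Tap1 (20.1 CPM) and Nlrc5 among clusters 4, 5, 6, 7, 15 and 18. Among the same clusters it had the highest pooled level of H2-K1 (1475 CPM), H2-D1 (2343 CPM) and Tapbp (282 CPM). Vehicle mouse 4 gave 60 of the 102 cells in cluster 18. No cluster had 20 cells in at least 2 mice of both arms, so a change within macrophages and a change of macrophage populations cannot be told apart.

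**Figure D3:**
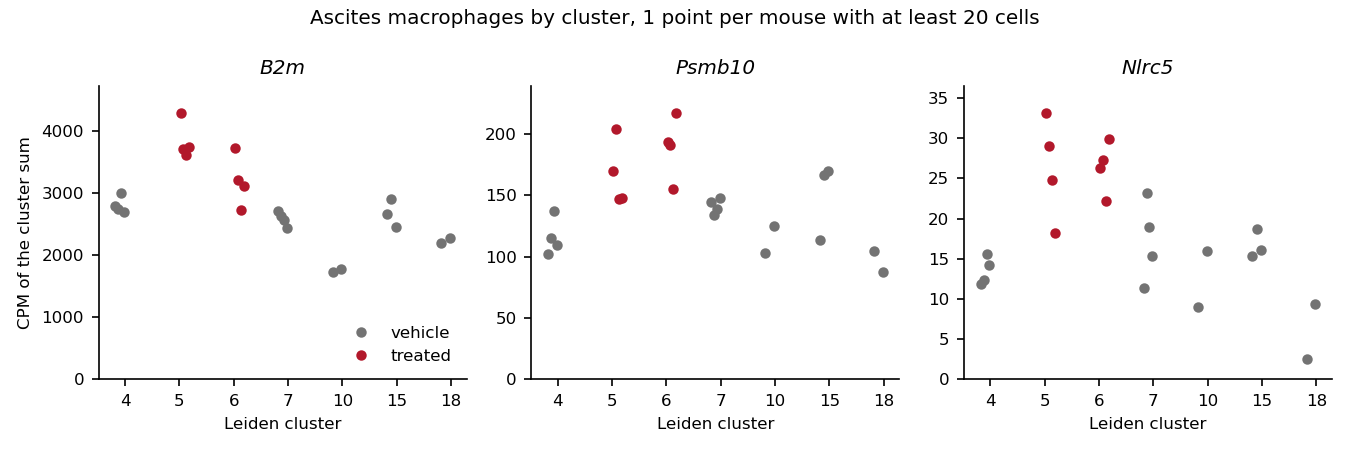
CPM of the cluster sum (vertical axes, from 0) for B2m, Psmb10 and Nlrc5 in ascites macrophages by Leiden cluster, 1 point per mouse with at least 20 cells. Clusters 5 and 6 have points from treated mice alone and the other clusters from vehicle mice alone; for B2m, cluster 5 lies at or above 3610 CPM and each vehicle point at or below 3004 CPM.

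In cDC1 of ascites, the immunoproteasome subunits Psmb8 and Psmb9 rose and Tap2 fell, 3 calls of 10 beside 17.4% of the 7287 genes tested (8.47% higher and 8.95% lower). B2m, which rose in macrophages, was at 1545, 1443, 1586 and 1536 CPM in vehicle and 1658, 1619, 1612 and 1582 CPM in treated cDC1, with overlapping arms (log2 0.06 ± 0.070, edgeR adjusted p = 0.671). DESeq2 called 3 of the genes as well. The sums held 92, 55, 46 and 65 cells of vehicle mice 1 to 4 and 55, 75, 67 and 65 cells of treated mice 1 to 4. The members' median log2 change was -0.01, against -0.002 over all genes tested.

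Psmb8 stood at 736.5, 722.5, 686.0 and 776.5 CPM in vehicle and 960.0, 886.8, 839.7 and 915.5 CPM in treated cDC1. The arms did not overlap (log2 0.27 ± 0.076, edgeR adjusted p = 0.0101). With cDC1 taken as whole clusters the change was 0.22, with an edgeR adjusted p of 0.0533. Psmb9 was at 445.6, 484.1, 484.2 and 564.2 CPM in vehicle and 640.6, 545.4, 638.5 and 618.6 CPM in treated mice. Vehicle mouse 4 was above treated mouse 2, and the change was 0.28 ± 0.085 (edgeR adjusted p = 0.0197). That call ended with whole clusters (0.21, edgeR adjusted p = 0.0985) and when vehicle mouse 1 (edgeR adjusted p = 0.109), vehicle mouse 2 (0.0539), treated mouse 1 (0.0585), treated mouse 3 (0.0695) or treated mouse 4 (0.0509) was left out.

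Tap2 was at 157.0, 185.2, 135.8 and 181.7 CPM in vehicle and 143.4, 117.4, 114.9 and 132.8 CPM in treated cDC1. Treated mouse 1 was above vehicle mouse 3, and the rest of the treated mice were below all vehicle mice. Tap2 fell by 0.40 on the log2 scale (SE 0.113, edgeR adjusted p = 0.0105). Without treated mouse 2 the change was -0.36 (edgeR adjusted p = 0.0552), and without treated mouse 3 it was also -0.36 (edgeR adjusted p = 0.0509). Tap1 measured 239.2, 234.4, 206.7 and 249.7 CPM in vehicle and 210.4, 219.0, 180.6 and 211.2 CPM in treated mice. Vehicle mouse 3 was among the treated values, and the change of -0.21 ± 0.096 did not pass (edgeR adjusted p = 0.140). Psmb10 was at 90.84, 130.0, 92.18 and 93.15 CPM in vehicle and 137.8, 133.1, 103.0 and 121.2 CPM in treated mice. Vehicle mouse 2 alone was within the treated range (log2 0.27 ± 0.127, edgeR adjusted p = 0.151), and without it the change was 0.40 (edgeR adjusted p = 0.0351).

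The remaining genes did not pass in cDC1, with log2 changes of 0.12 for H2-D1, -0.08 for H2-K1, -0.18 for Tapbp and -0.07 for Nlrc5. The cDC1 markers themselves summed to 3175 to 3509 CPM in vehicle and 2271 to 2375 CPM in treated mice, with 0 of 7 higher in treated mice. Macrophage markers were at 820 to 2776 CPM in vehicle and 588 to 1005 CPM in treated cDC1, and classical monocyte markers at 630 to 1475 CPM and 278 to 619 CPM. Their part in the result was not tested. Cluster 1 held 89.9% of vehicle and 95.0% of treated cDC1, so here both arms came from 1 cluster.

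In migratory dendritic cells, which carry antigen to lymph nodes, both transporter subunits fell, 2 calls of 10 beside 8.01% of the 4554 genes tested (4.0% lower). DESeq2 called 0 of the 10. Vehicle mice 1 to 3 gave 23, 29 and 21 cells, treated mice 1 to 4 gave 59, 63, 62 and 34, and vehicle mouse 4 had too few cells. Tap1 stood at 299.1, 193.9 and 205.1 CPM in vehicle and 171.5, 130.1, 144.1 and 186.3 CPM in treated mice. The arms were apart, with vehicle mouse 1 far above the rest, and Tap1 fell by 0.61 on the log2 scale (SE 0.174, edgeR adjusted p = 0.0273). Without vehicle mouse 1 the change was -0.43 (edgeR adjusted p = 0.187), without treated mouse 2 it was -0.52 (0.0960) and without treated mouse 3 it was -0.56 (0.0848). That vehicle mouse also had 14230 CPM of erythroid markers, against 7.72 to 13.6 CPM in treated mice, and their part in the result was not tested.

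Tap2 in migratory dendritic cells was at 126.0, 147.5 and 149.5 CPM in vehicle and 116.1, 62.86, 98.69 and 75.8 CPM in treated mice. No treated mouse reached the lowest vehicle mouse, and Tap2 fell by 0.73 on the log2 scale (SE 0.213, edgeR adjusted p = 0.0312). The edgeR adjusted p was 0.170 without vehicle mouse 2, 0.126 without vehicle mouse 3, 0.119 without treated mouse 2 and 0.0758 without treated mouse 4. Both calls ended with a simpler rule for the hashtags, which gave -0.52 for Tap1 (edgeR adjusted p = 0.123) and -0.57 for Tap2 (edgeR adjusted p = 0.115). The other 8 genes had log2 changes between -0.31 (Nlrc5) and 0.13 (H2-K1), and B2m was at 0.04. The class's own markers overlapped between arms, at 3728 to 5652 CPM in vehicle and 3912 to 5579 CPM in treated mice.

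**Figure D4:**
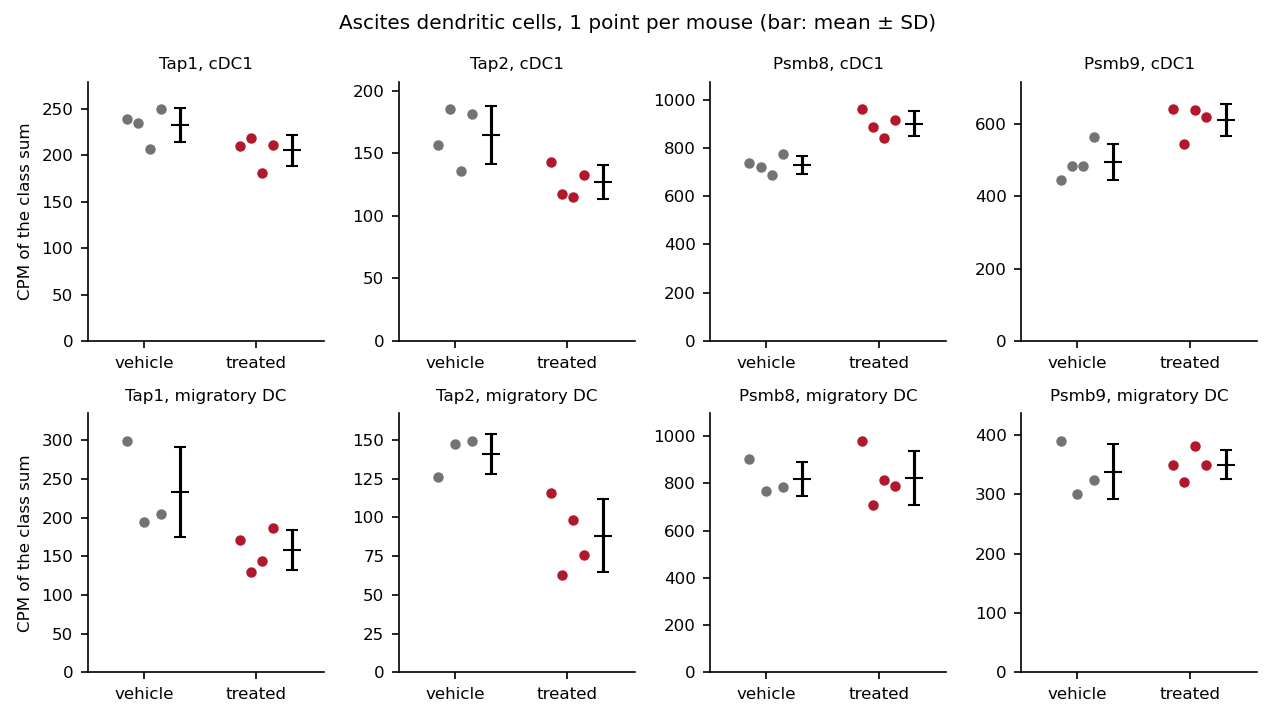
CPM of the class sum (vertical axes, each from 0) for Tap1, Tap2, Psmb8 and Psmb9 in ascites cDC1 (top) and migratory dendritic cells (bottom), 1 point per mouse, with the mean and SD as bars. Tap2 is lower on average in treated mice in both classes, and Psmb8 is higher in treated cDC1 without overlap.

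Classical monocytes of ascites gave the largest median log2 change over the members of any class, 0.45 over the 9 genes tested against 0.01 over all genes, but edgeR called 0 of them beside 6.1% of the 4856 genes tested. Of the 9, 5 had an unadjusted p under 0.05 (19.9% of all genes) and DESeq2 called 0. B2m was at 2547, 2791 and 1725 CPM in vehicle mice 1 to 3 and 4040, 2922, 3362 and 2800 CPM in treated mice 1 to 4. The arms just failed to overlap, and the log2 change was 0.52 ± 0.165 (edgeR adjusted p = 0.0782). Psmb10 was at 135.5, 124.1 and 140.4 CPM in vehicle and 193.1, 193.6, 181.8 and 195.3 CPM in treated monocytes, again apart (log2 0.56 ± 0.183, edgeR adjusted p = 0.0707). Psmb8 had 220.6, 238.6 and 230.8 CPM in vehicle and 388.0, 304.7, 268.0 and 303.0 CPM in treated mice, without overlap (log2 0.51 ± 0.169, edgeR adjusted p = 0.0745). Vehicle monocytes lay mostly in cluster 10 (64.5%) and treated monocytes in cluster 6 (66.3%). Their own markers summed to 4404 to 6185 CPM in vehicle and 2463 to 3629 CPM in treated mice, and the part of either in these values was not tested.

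Ascites B cells had 0 calls beside 8.88% of the 5651 genes tested, with 4 of the 10 genes at an unadjusted edgeR p under 0.05 (19.2% of all genes) and 0 called by DESeq2. Their surface chains and proteasome subunits had opposite signs. B2m was at 1710, 1754, 1682 and 1898 CPM in vehicle and 2152, 1935, 2079 and 2133 CPM in treated mice, without overlap (log2 0.15 ± 0.063, edgeR adjusted p = 0.161). Psmb8 was at 163.0, 141.4, 178.3 and 190.9 CPM in vehicle and 145.9, 169.9, 144.9 and 121.5 CPM in treated mice, with overlap (log2 -0.36 ± 0.150, edgeR adjusted p = 0.146). Psmb9 and Psmb10 gave log2 changes of -0.31 and -0.40, and neither passed. With library size as the only scaling, H2-K1 (0.24), H2-D1 (0.27) and B2m (0.24) passed, as they did without vehicle mouse 4. Cluster 0 held 72.2% of vehicle and 96.6% of treated B cells. Plasma cell markers in the class were at 352 to 624 CPM in vehicle and 148 to 275 CPM in treated mice (1 of 6 higher), and migratory dendritic cell markers at 283 to 346 CPM and 411 to 546 CPM (4 of 7 higher). Macrophage markers in the class were higher still, at 2356 to 3864 CPM in vehicle and 2505 to 2699 CPM in treated mice. Classical monocyte markers were at 845 to 1327 CPM and 855 to 1037 CPM. The part of any of these markers in the values was not tested.

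In the other ascites classes edgeR called none of the members. There the share of all genes at an unadjusted p under 0.05 was 5.96% in Other T cells, 8.33% in CD8 T cells and 9.65% in neutrophils. In cDC2, 1 of 9 genes had an unadjusted p under 0.05 (19.2% of all genes), DESeq2 called 0, and 6.69% of all genes were called. B2m there was at 1665 to 1812 CPM in 4 vehicle mice and 1936 to 2217 CPM in 3 treated mice, with a log2 change of 0.24 ± 0.104 (edgeR adjusted p = 0.197), and it passed with whole clusters (0.30). CD8 T cells had 0 of 10 genes at an unadjusted p under 0.05, 0 by DESeq2 and 0.0402% of all genes called, and their largest log2 changes were 0.60 ± 0.345 for Psmb9 and 0.59 ± 0.330 for Psmb10. Macrophage markers in the CD8 T cells were at 1998 to 2150 CPM in vehicle and 1273 to 2170 CPM in treated mice, and their part was not tested. Other T cells, those positive for neither or both of the CD4 and CD8 gates, had 2 vehicle mice. There 2 of 10 genes had an unadjusted p under 0.05 and DESeq2 called 0, beside 0.0634% of all genes, and B2m was at 1851 to 2145 CPM in vehicle and 2275 to 3294 CPM in treated mice. Neutrophils, with 2 treated mice, had 5 genes tested, all with a positive change, 0 of them at an unadjusted p under 0.05 and 0 by DESeq2, beside 0.280% of all genes. CD4 T cells of ascites were too few to test.

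Over all kept ascites cells together, H2-K1, B2m, Psmb8, Psmb9 and Nlrc5 rose, 5 calls of 10 beside 18.4% of the 11654 genes tested (8.15% higher), and all 10 changes were positive. In such sums, fewer cells of a type and less RNA per cell cannot be told apart. Psmb8 was at 345.1, 296.0, 302.9 and 284.0 CPM in vehicle and 509.2, 458.7, 448.7 and 415.6 CPM in treated mice, without overlap (log2 0.57 ± 0.099, edgeR adjusted p = 0.00275). Psmb9 was at 166.0, 138.6, 139.9 and 143.0 CPM in vehicle and 236.4, 223.7, 236.5 and 219.9 CPM in treated mice, also apart (log2 0.64 ± 0.091, edgeR adjusted p = 0.000936). Nlrc5 was at 21, 20.67, 20.07 and 21.63 CPM in vehicle and 33.95, 31.21, 31.46 and 35.48 CPM in treated mice. Its log2 change of 0.66 ± 0.083 was the largest of the 10 (edgeR adjusted p = 0.000483).

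The surface chains were less uniform in the whole ascites sample, where H2-D1 did not pass (log2 0.17 ± 0.078, edgeR adjusted p = 0.163). B2m was at 2257, 2330, 2421 and 2190 CPM in vehicle and 3194, 2926, 2961 and 2546 CPM in treated mice, without overlap (log2 0.34 ± 0.083, edgeR adjusted p = 0.0172). This call ended without vehicle mouse 1 (edgeR adjusted p = 0.0510), vehicle mouse 2 (0.0502), treated mouse 1 (0.0562) or treated mouse 3 (0.0606). H2-K1 was at 1116, 1079, 1060 and 1208 CPM in vehicle and 1418, 1258, 1342 and 1274 CPM in treated mice, without overlap (log2 0.24 ± 0.074, edgeR adjusted p = 0.0433). The H2-K1 call ended with no filter on low counts (edgeR adjusted p = 0.111) and without any 1 of vehicle mice 1, 2 and 3 or treated mice 1, 2 and 3, for which the log2 change lay between 0.21 and 0.27 (edgeR adjusted p = 0.0513 to 0.126).

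Because the classes took different shares of the arms, the level of each gene was recomputed with each of 8 classes held at its mean share of UMIs over the mice, an alternative added after seeing the data. These classes held 81.9% of the UMIs, and exact two-sided permutation tests of 4 against 4 mice can go no lower than p = 0.0286. B2m kept its change, from log2 0.33 at the mice's own shares to 0.31 at equal shares (permutation p = 0.0286 in both), and Psmb10 went from 0.37 to 0.36 (p = 0.0286 at equal shares). Psmb8 went from 0.68 to 0.27 and Psmb9 from 0.75 to 0.28, each with an exact permutation p of 0.0286 at equal shares. Nlrc5 went from 0.67 to 0.21 (exact permutation p = 0.114) and H2-K1 from 0.23 to 0.08 (exact permutation p = 0.229). Tap1 went from 0.34 to -0.033, and Tap2 from 0.07 (exact permutation p = 0.629) to -0.28 (exact permutation p = 0.0286). These were 10 genes on 2 scales, and their p-values are not adjusted.

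In spleen B cells Psmb9 rose, 1 call of 10 beside 4.41% of the 8662 genes tested (2.40% higher), and DESeq2 also called 1. Psmb9 was at 149.5, 113.4 and 126.6 CPM in vehicle mice 1 to 3 and 170.5, 149.9 and 161.0 CPM in treated mice 2 to 4. The arms were apart by less than 1 CPM, and the log2 change was 0.37 ± 0.092 (edgeR adjusted p = 0.0110). It was 0.28 without vehicle mouse 2 (edgeR adjusted p = 0.202), 0.32 without treated mouse 2 (edgeR adjusted p = 0.0651) and 0.23 with a limit of 5% mitochondrial UMIs (edgeR adjusted p = 0.704). B2m was at 1467, 1451 and 1437 CPM in vehicle and 1536, 1510 and 1556 CPM in treated mice. Its arms did not overlap either, but the change of 0.14 ± 0.056 did not pass (edgeR adjusted p = 0.173), except with whole clusters (0.17, edgeR adjusted p = 0.0252). Plasma cell markers in this class were at 983 to 1163 CPM in vehicle and 698 to 730 CPM in treated mice, and macrophage markers at 738 to 929 CPM and 518 to 564 CPM, and their part in the result was not tested.

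Elsewhere in spleen edgeR called none of the 10 genes, and 7.18% to 8.76% of all genes in a T cell class had an unadjusted p under 0.05. CD4 T cells had 0 and CD8 T cells 1 with an unadjusted p under 0.05, DESeq2 called 0 in both, and 0.499% and 0.476% of all genes were called. Other T cells of spleen had 1 at an unadjusted p under 0.05, which was H2-K1 (log2 0.22 ± 0.068, edgeR adjusted p = 0.108), and DESeq2 called 1, beside 1.72% of all genes. Over all kept spleen cells 9 of 10 changes were positive, 1 gene had an unadjusted p under 0.05 and DESeq2 called 0, beside 1.86% of all genes.

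In blood no gene of the 10 passed in any class, and 6.04% to 9.28% of all genes in a class had an unadjusted p under 0.05. B cells had 1 gene and CD8 T cells 1 gene at an unadjusted edgeR p under 0.05, NK cells had 0 of 8, DESeq2 called 0 in all, and 1.03%, 0.0880% and 0.473% of all genes were called. Over all kept blood cells 2 of 10 changes were positive, 1 had an unadjusted p under 0.05 and DESeq2 called 0, beside 0.618% of all genes. Psmb9 in blood B cells was at 153.6, 147.6 and 151.2 CPM in vehicle and 128.4, 109.1 and 159.5 CPM in treated mice, with overlap (log2 -0.14, edgeR adjusted p = 0.755). Psmb8 was at 388.3, 350.5 and 381.1 CPM in vehicle and 339.2, 330.1 and 322.4 CPM in treated B cells. There the treated mice were all lower, but the change of -0.15 did not pass (edgeR adjusted p = 0.529).

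Differences between effects were tested directly, with the mouse as a block, so only mice with both sums entered. Between tissues these were 3 vehicle against 3 treated mice, except 2 against 2 for CD8 T cells of ascites and spleen. The Psmb9 change in blood B cells was lower than that in spleen B cells by 0.52 ± 0.136 on the log2 scale, written -0.52 (edgeR adjusted p = 0.0340, beside 0.953% of all genes). Without the mouse block it was -0.51, with an edgeR adjusted p of 0.0593. Between ascites and spleen B cells edgeR called 0 of the 10, with 1 at an unadjusted p under 0.05 and 2.69% of all genes called, although Psmb9 passed without the mouse block (0.73, edgeR adjusted p = 0.0486). For CD8 T cells 0 passed between ascites and spleen (0.0679% of all genes) and between spleen and blood (0.201%), with 0 at an unadjusted edgeR p under 0.05 in both. DESeq2 was not run on these differences.

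Within ascites, macrophages were compared with each other class. Vehicle against treated mice were 4 against 4 for cDC1 and B cells and 3 against 4 for migratory dendritic cells and classical monocytes. They were 4 against 3 for cDC2, 3 against 3 for CD8 T cells, 2 against 4 for Other T cells and 4 against 2 for neutrophils. The cDC1 effect minus the macrophage effect was -0.42 ± 0.078 for B2m (edgeR adjusted p = 0.00145), -0.54 ± 0.147 for Tap1 (edgeR adjusted p = 0.0272) and -0.97 ± 0.265 for Nlrc5 (edgeR adjusted p = 0.0272), 3 of 10 beside 6.43% of all genes. In migratory dendritic cells, 2 of 10 differed from macrophages beside 3.85% of all genes, Tap1 by -0.80 ± 0.215 (edgeR adjusted p = 0.0216) and Nlrc5 by -1.13 ± 0.308 (edgeR adjusted p = 0.0250). Neither held with the simpler hashtag rule (-0.69, edgeR adjusted p = 0.0973, and -0.97, edgeR adjusted p = 0.0867). In B cells, 2 of 10 differed beside 5.87% of all genes, Psmb8 by -0.82 ± 0.176 (edgeR adjusted p = 0.00184) and Psmb10 by -0.96 ± 0.243 (edgeR adjusted p = 0.00900). All of these comparisons share the macrophage sums. Against classical monocytes (1.78% of all genes), cDC2 (1.97%), CD8 T cells (0.755%), Other T cells (0.636%) and neutrophils (0.327%), edgeR called 0 of the genes, with 1, 3, 1, 0 and 1 of them at an unadjusted p under 0.05.

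Levels in vehicle mice differed between classes for each gene. Among the 16 tested classes, B2m was highest in migratory dendritic cells of ascites, at 4281 ± 563 CPM (SD, n = 3), followed by ascites macrophages at 2602 CPM, spleen Other T cells at 2382 CPM, ascites monocytes at 2354 CPM, ascites CD8 T cells at 2335 CPM and blood NK cells at 2307 CPM. It was lowest in B cells of blood (1391 CPM) and spleen (1451 CPM). Among the same classes the heavy chains were highest in blood NK cells, with H2-K1 at 2500 ± 261 CPM and H2-D1 at 2590 ± 247 CPM (SD, n = 3), and next in migratory dendritic cells, with 2245 ± 206 CPM and 2108 ± 172 CPM. For H2-K1 these neighbours lay within their spread. In cDC1, H2-K1 was at 845 CPM, the lowest of the 16 tested classes. Blood non-classical monocytes, which were not tested, had 2 vehicle mice with 24 and 25 cells and stood higher for some genes, with B2m at 4630 and 4184 CPM and H2-D1 at 2887 and 3047 CPM.

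The peptide supply genes were ordered differently among the tested classes. Tap1 was highest in migratory dendritic cells (233 ± 57.8 CPM, n = 3) and cDC1 (232 ± 18.3 CPM, n = 4), which did not differ beyond their spread, and Tap2 was highest in cDC1 (165 ± 23.1 CPM) and migratory dendritic cells (141 ± 13.1 CPM). Psmb9 stood at 494 ± 49.9 CPM in cDC1 and 338 CPM in migratory dendritic cells. Psmb8 reached 818 ± 72.6 CPM in migratory dendritic cells and 730 CPM in cDC1. Nlrc5 was high in migratory dendritic cells (86.9 ± 17.9 CPM) and ascites CD8 T cells (82.1 ± 9.23 CPM), within their spread, followed by spleen CD4 T cells at 50.3 CPM. Macrophages had 14.3 ± 1.76 CPM of Nlrc5 and cDC1 19.6 CPM. Psmb8, Psmb9 and Psmb10 made up 79.1% ± 0.779 (SD, n = 4) of the UMIs of the 6 catalytic subunit genes in vehicle cDC1, 68.4% ± 1.5 (SD, n = 3) in spleen B cells and 53.6% in macrophages.

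**Figure D5:**
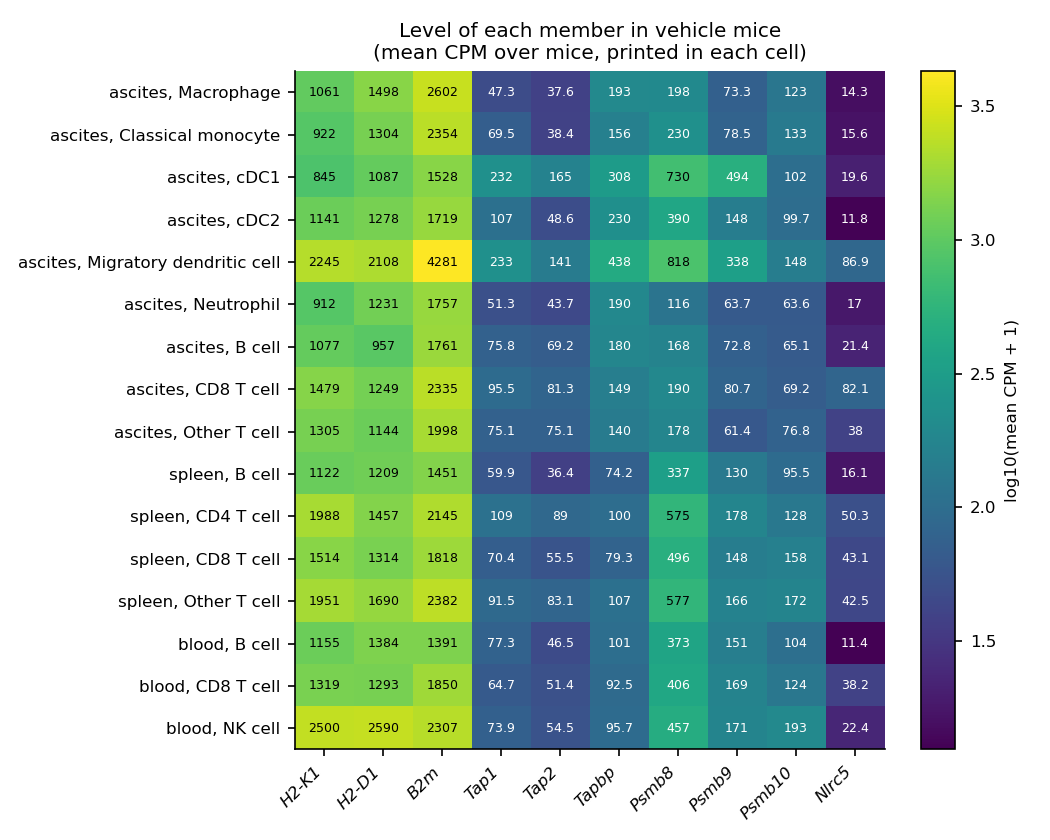
Mean CPM of each gene in vehicle mice by class and tissue, printed in each cell and coloured on a log10 scale. Columns are to be read downward, since transcripts of different genes are not compared; of the 16 tested classes shown, migratory dendritic cells are highest for B2m, Tapbp, Psmb8 and Nlrc5.

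Other genes of the pathway were read from fixed lists. Counts are over the list genes that passed the low-count filter in the class, which a gene can pass through 1 arm alone. Of all genes tested in ascites macrophages, 8.72% were called higher and 9.27% lower. In ascites macrophages the peptide loading and trimming list had 3 higher and 2 lower of 15, with Psme2, a proteasome activator subunit, at 119 CPM in vehicle and 174 CPM in treated mice (log2 0.56 ± 0.095, edgeR adjusted p = 0.00112). Calr, a chaperone of the loading complex, rose by 0.38 ± 0.091 (edgeR adjusted p = 0.00904), and the trimming peptidase Lnpep fell by 0.47 (SE 0.116, edgeR adjusted p = 0.0113). The constitutive 20S proteasome had 6 higher and 0 lower of 15, led by Psmb6 (0.51 ± 0.085). Among non-classical class I genes 2 rose and 2 fell of 12: H2-Q7 rose by 0.89 ± 0.147 and H2-Q4 by 0.62 ± 0.144, while Hfe, an iron regulator, fell by 1.14. The H2-Q genes are close relatives, and 90.5% of the 90-base stretches at the 3′ end of H2-Q4 were its own, so its counts are less certain.

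The list of enhanceosome parts and inducers had 7 higher and 1 lower of 26 in macrophages, with a median log2 change of 0.009 against 0.005 over all genes. Among those that rose was Stat2, from 17.3 to 44.7 CPM (log2 1.36 ± 0.148, edgeR adjusted p = 3.3e-05). Interferon-induced genes had 11 higher and 0 lower of the 18 tested out of 24 listed, with a median log2 change of 1.03 against 0.005 over all genes. Trim25, a ubiquitin ligase of the antiviral response, rose from 74 to 161 CPM (1.13 ± 0.096, edgeR adjusted p = 3.2e-06), and Irf7, the interferon regulatory factor of the type I response, from 23.6 to 85.6 CPM (1.86, edgeR adjusted p = 0.000403). Receptors for class I had 0 higher and 2 lower of 5, Pirb and Lilra5. The MHC class II list had a median log2 change of 0.06 over its 10 genes in macrophages.

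In cDC1, Ciita, the class II transactivator and a relative of NLRC5, fell from 171 to 58.7 CPM (log2 -1.57 ± 0.149, edgeR adjusted p = 1.3e-08), and the MHC class II list had 0 higher and 6 lower of 10, led by Ctss, H2-Oa and H2-DMa. The 20S proteasome had 7 higher and 0 lower of 15, among them Psmb3, Psmb6 and Psma1, and Psme1 and Psme2 rose by 0.31 and 0.40. Of the interferon-induced genes 2 of 5 rose, Trim25 and Bst2, and 0 fell. H2-Q7 rose by 0.90, on a non-classical list with 2 higher and 1 lower of 8. The loading and trimming list had 2 higher and 1 lower of 15, and the enhanceosome and inducer list 2 higher and 2 lower of 25. Of all genes tested in cDC1, 8.47% were called higher and 8.95% lower.

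In migratory dendritic cells Ciita fell by 2.08, on an enhanceosome and inducer list with 2 higher and 2 lower of 23. Their interferon-induced genes had 3 higher and 0 lower of 7 (Gbp2, Trim25 and Gbp3), and the class II list 0 higher and 3 lower of 10. In ascites B cells Ciita fell by 1.30, on an enhanceosome and inducer list with 6 higher and 2 lower of 24. Their class II list had 0 higher and 3 lower of 10 (H2-Aa, H2-Eb1 and Cd74), and H2-Q7 and H2-Q6 rose by 0.53 and 0.52. Ascites monocytes had 5 higher and 0 lower of 11 interferon-induced genes, Rtp4 by 3.18, Bst2 by 1.48 and Trim25 by 1.18. Spleen B cells had 4 higher and 0 lower of 15 loading genes, with Calr at 0.51 ± 0.085, Pdia3, an oxidoreductase of the loading complex, at 0.46 and Psme1 at 0.37, and 7 higher and 0 lower of 14 interferon-induced genes. Ciita also fell in blood B cells, by 0.59, where the enhanceosome and inducer list had 1 higher and 1 lower of 25.

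The genes whose levels across mice and classes were most like the mean of the 10 were found by Pearson's r on log2(CPM + 1), as a description without a test. In ascites (68 sums of 10 classes, 5529 genes) they were Psme1 (r = 0.902), Psme2 (0.892), Epsti1 (0.806), Sri (0.794) and Dynll2 (0.792). In spleen (35 sums, 10 classes, 4953 genes) they were Ifi47 (0.892), Psme1 (0.884), Clec2d (0.874), Lncpint (0.864) and Fkbp1a (0.858). Blood (24 sums, 6 classes, 5195 genes) gave, among the closest, Spn (0.902), Bin2 (0.896), Sept9 (0.893) and Itgal (0.892). Sums of 1 class share their cell type, and all sums of a tissue share a library. Within the 10 genes, the correlation of each with the mean of the rest in ascites ran from 0.791 for Psmb8 and 0.716 for Tap1 down to 0.375 for B2m and 0.334 for H2-D1.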

How the data were processed

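The deposited matrices hold counts: per the labels and the submitters' processing notes, UMIs from 10x Genomics 3′ v3.1 libraries counted with Cell Ranger 6.1.1 on mm10. The authors' read filters are not given in the sources used here. Hashtag counts were assigned to mice with HTODemux in Seurat 5.3.0 (quantile 0.99, normalized within each barcode). Barcodes were dropped below 200 genes or 500 UMIs, or above 10% mitochondrial UMIs. Doublets were removed only through the hashtags (1858 in ascites, 2254 in spleen and blood), so doublets within 1 mouse remain. Classes are gates on the number of fixed markers detected, with limits set when the counts were seen, and 14.1% of vehicle and 20.0% of treated ascites cells entered no class. UMI sums per mouse and class were tested with edgeR 4.0.16 (quasi-likelihood, TMM scaling, filterByExpr) in R 4.3.3, and DESeq2 1.42.0 served as an alternative. Leiden clusters used scanpy 1.11.5 (2000 variable genes, 30 components, 20 neighbours, resolution 1). The fits were tested on simulated data. A simulated 1.4-fold change was called for 10.4% (ascites monocytes) to 28.4% (cDC1 and blood B cells) of changed genes, and for 13.4% in macrophages. For a 2-fold change the shares were 44.8% (ascites monocytes) to 86.6% (blood B cells). Small changes can thus go uncalled. The alternatives were the hashtag rule (80% of a barcode's hashtag UMIs from 1 tag, among no fewer than 20) and its normalization, the mitochondrial limit, the markers, whole clusters, cells per mouse, low-count filter, scaling, test, replicate block and each mouse left out.

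The members and the lists were chosen with earlier results of these data known. All 10 members were named in every class, and from each list up to 3 genes past the threshold with the smallest p in each class described. Mice with the same number in both arms did not deviate together consistently, as the correlation of their deviations ranged from -0.09 to 0.40 over the 8 pairs in 3 tissues. Some genes that these rules select are not reported here.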

Additional observations from a re-analysis of the deposited data

Results flagged for a closer look

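Of 130 groups of 4 mice examined, 5 had a mouse far from the others, and chance gives about 1 in 20 groups. In migratory dendritic cells of ascites, treated mouse 4 had 106.1 CPM of Nlrc5, against 60.66 to 64.66 CPM in the other treated mice. In ascites Other T cells the same mouse was low, with 43.49 CPM of Nlrc5 against 76.51 to 80.57 CPM. Psmb10 in classical monocytes was 181.8 CPM in treated mouse 3, against 193.1 to 195.3 CPM in the others. Vehicle mouse 2 had 130.0 CPM of Psmb10 in cDC1, against 90.84 to 93.15 CPM, and vehicle mouse 1 had 166.0 CPM of Psmb9 over all kept ascites cells, against 138.6 to 143.0 CPM.

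The effect of treatment differed between groups, by edgeR's test of the difference itself, for 8 pairs. Psmb9 gave -0.52 for blood B cells minus spleen B cells. For ascites B cells minus macrophages, Psmb8 gave -0.82 and Psmb10 -0.96. For cDC1 minus macrophages, B2m gave -0.42, Tap1 -0.54 and Nlrc5 -0.97. For migratory dendritic cells minus macrophages, Tap1 gave -0.80 and Nlrc5 -1.13.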

How the results depend on the processing

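For single genes, 289 values under other settings kept their side of the threshold, 11 lost it, 21 gained it and 0 called values changed sign. With a mouse left out these were 198, 27, 10 and 0. Of 3022 log2 values, 2811 had the main sign and 205 with the other sign belonged to pairs never called. B2m, Psmb8, Psmb10 and Nlrc5 in macrophages passed under all 12 settings and all 8 omissions of a mouse.

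Counts of members past the threshold that moved by over 1.5 times are as follows, and the cause was not tested. In cDC1, whole clusters gave 1. For cDC2, whole clusters gave 1 and at least 10 cells per mouse 1. Monocytes gave 2 with at most 5% mitochondrial UMIs, and 1 each with 1 more marker, at least 10 cells, no low-count filter or the replicate block. For migratory dendritic cells, the hashtag rule alone gave 0, DESeq2's test 0, and at least 10 cells, no filter or library size alone 1 each. Ascites B cells gave 3 with library size alone, spleen B cells 0 at 5% mitochondrial UMIs and 2 with whole clusters, and spleen Other T cells 1 with library size alone and 1 with DESeq2's test. For differences of effect, migratory dendritic cells against macrophages gave 0 with the hashtag rule alone, ascites against spleen B cells 1 and spleen against blood B cells 0 without the mouse block.

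Leaving out 1 mouse gave 3 to 7 calls over all kept ascites cells, 0 to 3 in ascites B cells, 1 to 3 in cDC1, 0 to 1 in monocytes, 4 to 6 in macrophages, 0 to 2 in migratory dendritic cells, 0 to 1 in spleen B cells and spleen Other T cells, and 0 in the other classes. In neutrophils and ascites Other T cells this left a lone mouse in an arm, assumed to vary like the others. With class shares held equal, added after seeing the data like the hashtag normalization over barcodes, Tap1 turned to -0.033, Tap2 to -0.28 and Tapbp to -0.088.

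With the replicate block, Tap1 (0.30, edgeR adjusted p = 0.0166) and Psmb10 (0.31, 0.0289) over all kept ascites cells, B2m in monocytes (0.61, 0.0212) and H2-K1 over all kept spleen cells (0.33, 0.0346) passed, so that spleen gave 1 call, and no call was lost. Equal mouse numbers are not stated to pair mice across arms. Classes of under 50 cells per mouse and genes of few UMIs, such as Nlrc5, have the least depth.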

Other observations

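Spleen classical monocytes had 20 cells in 1 mouse per arm, so no test was made. Vehicle mouse 3 (47 cells) had 484.6 CPM of H2-K1, 1069 CPM of H2-D1, 1130 CPM of B2m and 6.67 CPM of Nlrc5. Treated mouse 4 (30 cells) had 1116, 2280, 2540 and 22.2 CPM. Psmb9 was 160 CPM in the vehicle mouse and 165 CPM in the treated mouse. That vehicle mouse was also the lowest of its arm over all kept spleen cells, with H2-K1 at 1015 CPM against 1341 and 1327 CPM in the others and B2m at 1523 CPM against 1941 and 1890 CPM. Its makeup of cells differed too, with 899667 UMIs from classical monocytes and 804711 from neutrophils among 5767566 spleen UMIs. Vehicle mouse 1 had 162959 and 132289 of 5171631, and vehicle mouse 2 had 334257 and 187018 of 4958048. The part of this makeup in the whole-spleen values was not tested.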
